A study of Mus musculus with 12 samples.

Results

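Inhibins and activins are hormones of the ovarian follicle. The 9 genes chosen here encode subunits of these hormones, their binding protein follistatin, and receptors or a co-receptor. They are Inha, Inhba, Inhbb, Fst, Tgfbr3, Acvr2a, Acvr2b, Acvr1 and Acvr1b. They were taken by gene symbol from a table that compares vitrified with fresh follicles, in which 8 of the 9 were analysed, of 11806 genes in all, and Acvr2b was not analysed here. RNA had been sequenced from 6 vitrified and 6 fresh follicles. Vitrification is cryopreservation by cooling into a glass-like state. Follicles of both groups came from CD-1 mice, an outbred stock, aged 16 days, and each was enclosed alone in 0.5% alginate, a seaweed hydrogel, and grown for 8 days with 10 mIU/mL of recombinant follicle-stimulating hormone (FSH). Each library held the RNA of a whole follicle, so oocyte, granulosa and theca cells were not separated, and fewer cells of a type cannot be told apart from less RNA per cell. Which animal gave each follicle is not in the labels, so the p-values measure only the spread between these follicles.

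An inhibin is a dimer of the alpha subunit, made from Inha, with a beta subunit, made from Inhba or Inhbb. A dimer of beta subunits alone is an activin. Granulosa cells make these hormones under FSH. Activin binds a type II receptor, which recruits and phosphorylates a type I receptor, and the signal passes to SMAD2 and SMAD3. Follistatin binds activin and keeps it from its receptors. Inhibin, with the co-receptor betaglycan, occupies the type II receptor and so opposes activin. Activin raises and inhibin lowers FSH release from the pituitary, and within the follicle activin acts on granulosa cells and the oocyte.

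None of the 8 genes passed an adjusted p of 0.05 between vitrified and fresh follicles (0 of 8, against 0.529% of 10963 tested genes, by the authors' deposited table). The subunit genes Inha and Inhba had fold changes near 1, with the smallest standard errors of the 8. These errors, and the 95% intervals below, were derived from each gene's fold change and p as if the test were normal, and hold counting error and the spread between follicles together. The beta B subunit gene Inhbb was 1.48-fold and the follistatin gene Fst 1.77-fold lower in vitrified follicles in the authors' deposited table, each with an unadjusted p under 0.05 only. At that unadjusted threshold 2 of the 8 genes stood, or 25%, both lower, against 7.02% of all tested genes and 3.79% for lower genes. The background was higher among the 2007 tested genes with a total of at least 1000, at 11.4%, and 5.43% for lower genes. Intervals lay wholly within 2-fold for 4 of the 8 genes, Inha, Inhba, Tgfbr3 and Acvr2a, against 69.1% of all tested genes. The 4 receptor and co-receptor genes had unadjusted p-values from 0.136 to 0.520 in the authors' deposited table.

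**Figure D1:**
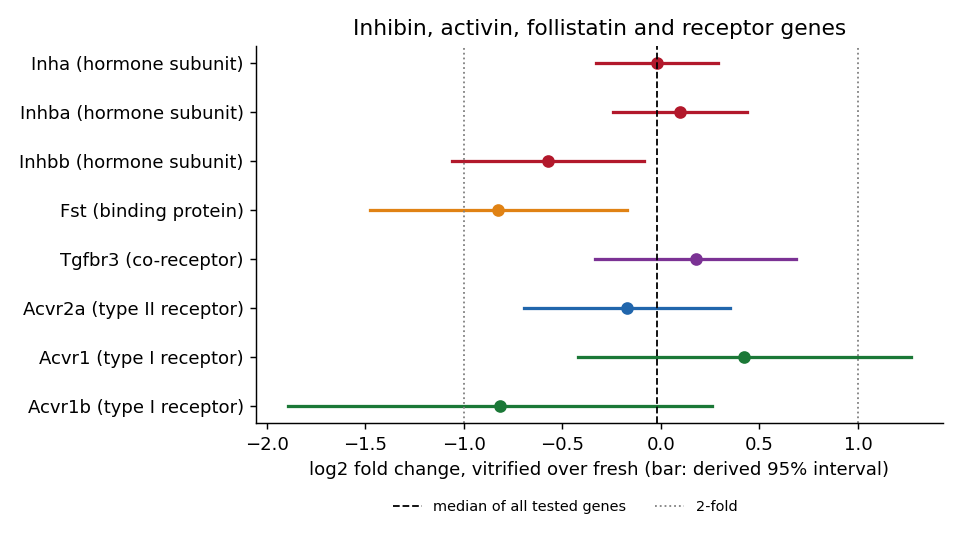
Log2 fold change of each of the 8 genes, vitrified over fresh, as points, with derived 95% intervals as bars, coloured by role; the dashed line is the median of all tested genes at -0.02 and the dotted lines mark 2-fold. The bars of Fst and Inhbb lie below 0, and those of the other 6 genes cross it.

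The alternative beta subunits decide which inhibin or activin is made, so, to show how their genes begin, the 250 bases before the RefSeq start site of each (build GRCm38.p6) are shown 5′ to 3′ along the gene's strand, with each CG dinucleotide in capitals. The Inhba stretch is chr13:16011601-16011850 on the plus strand and the Inhbb stretch is chr1:119422249-119422498 on the minus strand.
Inhba: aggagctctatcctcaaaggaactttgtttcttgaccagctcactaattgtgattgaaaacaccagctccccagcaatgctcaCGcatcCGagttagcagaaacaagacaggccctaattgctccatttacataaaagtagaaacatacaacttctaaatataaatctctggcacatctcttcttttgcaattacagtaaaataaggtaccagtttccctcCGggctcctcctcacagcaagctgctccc
Inhbb: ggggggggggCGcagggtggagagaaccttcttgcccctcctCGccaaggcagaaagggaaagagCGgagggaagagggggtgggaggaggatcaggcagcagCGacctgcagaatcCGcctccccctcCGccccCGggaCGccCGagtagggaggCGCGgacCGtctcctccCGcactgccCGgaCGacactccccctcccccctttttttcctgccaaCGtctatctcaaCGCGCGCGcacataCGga
The sequences differ in composition. The Inhbb stretch holds 21 CG dinucleotides and is 68.0% G or C, and the Inhba stretch holds 3 and is 43.2% G or C. Over the 32851 windows of the RefSeq table the median is 6 CG dinucleotides and 52.4% G or C. The windows of 300 bases, which reach 50 bases past the start, were searched on both strands. Neither Inhba nor Inhbb held TGACGTCA or TGCGTCA, letters of the cAMP response element and a variant of it. Neither held AGGTCA, bound by nuclear receptors, or the full palindrome GTCTAGAC of the SMAD-binding element. No searched motif contains another. The searched letters occur in 1.79%, 2.12%, 16.3% and 0.213% of all windows in the order given. The shorter SMAD box GTCT was not searched by itself, and its share of all windows was not counted. Its letters can be read in the printed Inhbb stretch, and its reverse complement AGAC in the Inhba stretch. The sequence TATAAA, searched after the sequences had been seen, begins 91 bases before the Inhba start, is not in the Inhbb window and occurs in 13.6% of windows. RefSeq windows were matched for 7 of the 9 genes. For Inha the RefSeq start lies 532 bases inside the gene as GENCODE annotates it, so its window is not shown as a promoter.

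The alpha subunit gene Inha lies on chromosome 1 from 75507077 to 75510366 (GRCm38, plus strand) with a single annotated transcript of 1475 bases. Its total over the 12 libraries was 1121843 in the authors' deposited table, the second highest of all genes, or 4.72% of the sum over genes. Per kilobase of exon this is a level of 760572. For its difference, the authors' deposited table gave a log2 value of -0.02 (95% interval -0.33 to 0.29), vitrified over fresh, with an unadjusted p of 0.902. The interval lay within 2-fold in either direction, and a gene with the derived error of Inha (0.16) would have passed the adjusted threshold at a 1.49-fold change. The sign of so small a value depends on centring, since it is 0.0024 when fold changes are centred on the median of all tested genes.

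The beta A subunit gene Inhba, on chromosome 13 from 16011851 to 16031621, had a total of 428344 in the authors' deposited table, the fifth highest. By the authors' deposited table it was 0.10 higher on the log2 scale in vitrified follicles (-0.24 to 0.43), with an unadjusted p of 0.574, and this interval too lay within 2-fold. The level of Inha per kilobase was 11.3 times that of Inhba over the union of exons, and 7.03 times with the mean length of coding transcripts. Whether a given Inhba transcript was made into inhibin A or activin A is not measured by RNA.

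The beta B subunit gene Inhbb lies on chromosome 1 from 119415465 to 119422248, with a single annotated transcript of 4255 bases. For Inhbb the authors' deposited table gave a total of 16202 and a log2 fold change of -0.57 (-1.06 to -0.08). Its p was 0.0216 unadjusted and 0.534 adjusted by the authors' deposited table, so the lower value in vitrified follicles did not pass. With the derived error of Inhbb (0.25) a change of 1.88-fold was needed to pass. Of 172 tested genes with a total within 2-fold of that of Inhbb, 15.7% had an unadjusted p under 0.05 and 8.72% did so with lower values. The level of Inhba per kilobase was 17.6 times that of Inhbb in the pooled follicles. The log2 fold change of Inhba exceeded that of Inhbb by 0.67; this difference was not tested, since no values per follicle were used and the genes share libraries.

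The follistatin gene Fst, on chromosome 13 from 114452290 to 114458951 on the minus strand, had the lowest p of the 8. For Fst the authors' deposited table gave a total of 8336 and a log2 fold change of -0.82 (-1.48 to -0.17), which is 1.77-fold lower in vitrified than in fresh follicles. Its p was 0.0133 before and 0.446 after adjustment by the authors' deposited table. By p, Fst ranked 342 among all genes. The derived error of Fst, 0.33, was larger than that of 94.2% of 346 tested genes with a total within 2-fold of its own, whose median error was 0.20. The same share was 85.8% for Acvr1b, 81.8% for Tgfbr3, 75.6% for Inhbb, 51.4% for Acvr1 and 50.8% for Acvr2a. Totals of tested genes began at 59.45, so the lower side was cut short for Acvr1b (68.4) and Acvr1 (89.4). Most genes compared with Acvr1b thus had higher totals than it, and its share cannot be set beside the others. A change of 2.33-fold was needed for Fst to pass with its derived error. Of the 346 genes with a total like that of Fst, 14.2% had an unadjusted p under 0.05 and 6.65% did so with lower values. Fst has 6 annotated transcripts whose exons cover 4589 bases together, against 2921 bases for the longest, and 115 of its exonic bases overlap the predicted gene Gm47040 on the other strand, whose reads cannot be told apart if counting ignored strand.

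**Figure D2:**
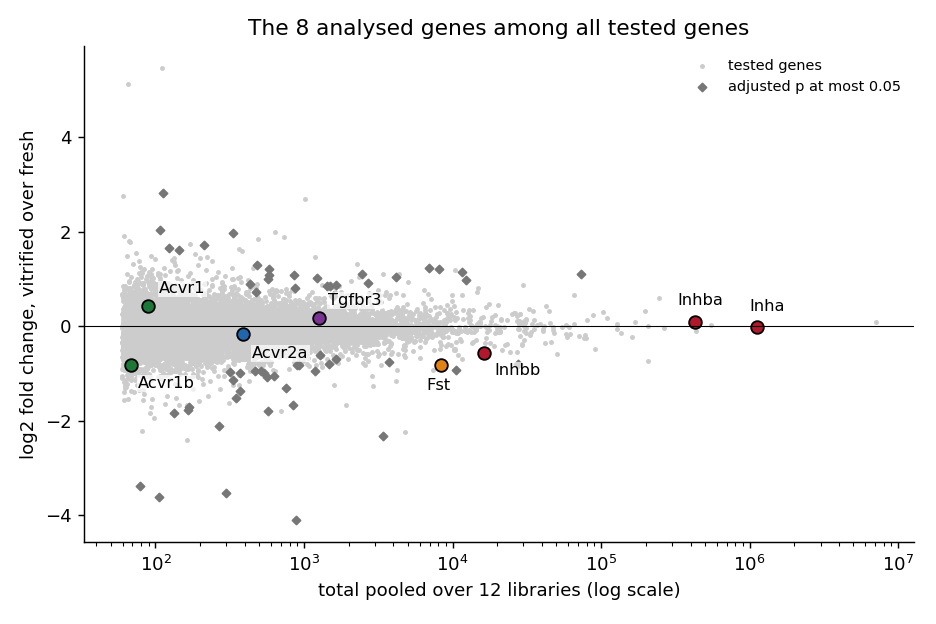
Log2 fold change, vitrified over fresh, against the total pooled over 12 libraries (log scale) for the 10963 tested genes as grey points, those with an adjusted p of at most 0.05 as dark diamonds, and the 8 genes as labelled circles coloured by role. Inha and Inhba sit near 0 at the right end with totals of 1121843 and 428344, Inhbb and Fst lie below 0, and none of the 8 is a diamond.

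The co-receptor gene Tgfbr3 encodes betaglycan, which binds inhibin and raises its affinity for type II receptors. It lies on chromosome 5 from 107106570 to 107289629. By the authors' deposited table Tgfbr3 had a total of 1270, the highest of the receptor and co-receptor genes among the 8. It was 0.18 higher on the log2 scale in vitrified follicles (-0.33 to 0.68), with an unadjusted p of 0.497 by the authors' deposited table. Of the 50-base windows of its transcripts, 6.0% occur in transcripts of another gene, and 297 of its exonic bases also belong to the predicted gene Gm43422 on the same strand, so a small part of its count is uncertain.

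The type II receptor gene Acvr2a, on chromosome 2 from 48814109 to 48903269, encodes a receptor that activin binds before a type I receptor joins. The authors' deposited table gave Acvr2a a total of 390.2 and a log2 fold change of -0.17 (-0.70 to 0.35), with an unadjusted p of 0.520. Windows found in other genes made up 5.82% of its transcripts, and 446 of its exonic bases overlap Orc4 on the opposite strand, which matters if counting ignored strand.

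The type I receptor genes had the lowest totals. Acvr1b encodes ALK4, a type I receptor of activin, and lies on chromosome 15 from 101174067 to 101213684. Its total of 68.4 is a mean of 5.70 per library, close to 59.45, the lowest total at which the authors' deposited table gives an adjusted p. Against fresh follicles, the authors' deposited table put Acvr1b 1.76-fold lower in vitrified ones, at -0.82 on the log2 scale (-1.89 to 0.26), with an unadjusted p of 0.136. Acvr1b and Fst thus had nearly equal fold changes, but the interval of Acvr1b also held 0. Acvr1 encodes ALK2, a type I receptor used mainly by bone morphogenetic proteins, and lies on chromosome 2 from 58388644 to 58567157. The authors' deposited table gave Acvr1 a total of 89.4 and a log2 fold change of 0.42 (-0.42 to 1.27), with an unadjusted p of 0.326. With their derived errors, observed changes of 4.02-fold for Acvr1b and 2.99-fold for Acvr1 were needed to pass. An observed 2-fold change would therefore not have passed in either.

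**Figure D3:**
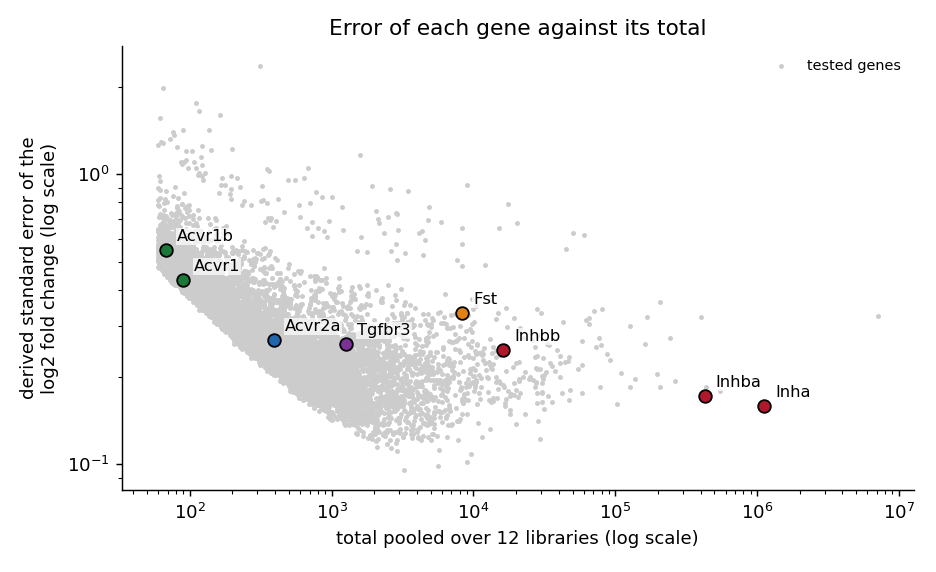
Derived standard error of the log2 fold change against the total pooled over 12 libraries (both on log scales) for the tested genes as grey points and the 8 genes as labelled circles coloured by role. The error is largest for Acvr1b at 0.55 and Acvr1 at 0.43, smallest for Inha at 0.16, and Fst, Tgfbr3 and Inhbb stand above most genes of like total. Acvr1b does so too, but most of the tested genes it was compared with have higher totals.

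Per kilobase of exon, the pooled levels ran in the order of hormone, binding protein, co-receptor and receptors. After Inha at 760572 came Inhba at 67033, Inhbb at 3808 and Fst at 1817, then Tgfbr3 at 194, Acvr2a at 68.6, Acvr1 at 18.5 and Acvr1b at 15.5. The level of Fst was 9.36 times that of Tgfbr3, and the level of Inhba 36.9 times that of Fst. The order of Inhbb and Fst depends on the length used, since the level of Inhbb was 2.10 times that of Fst over the union of exons, 1.33 times with the longest transcript and 0.764 times with the mean length of coding transcripts. Acvr1 and Acvr1b differed by 1.20 times over the union of exons and by 2.36 times with mean coding transcripts. No spread over follicles is given for a level, so neighbours in this order could not be tested, and for the same reason no gene can be named whose pattern over follicles was most like that of a member.

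**Figure D4:**
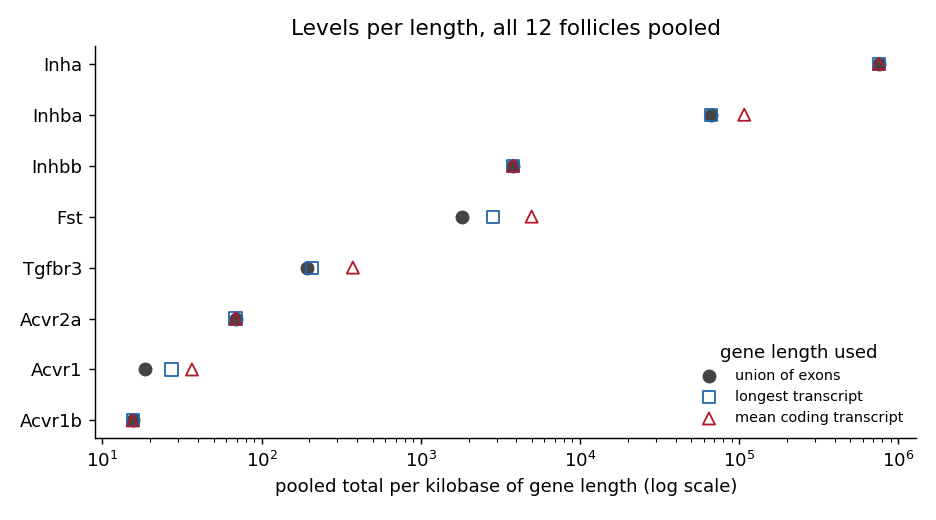
Total pooled over the 12 follicles per kilobase of gene length (log scale) for each of the 8 genes, with length taken as the union of exons (filled circles), the longest transcript (squares) or the mean coding transcript (triangles). Levels run from 760572 for Inha to 15.5 for Acvr1b over the union of exons, and the triangle of Fst lies to the right of that of Inhbb.

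Among other genes of activin and transforming growth factor beta family signalling, 43 of 66 listed symbols were analysed and 41 had an adjusted p. None of these passed (0 of 41, against 0.529% of all tested genes). In vitrified follicles 20 were higher and 21 lower, with a median log2 fold change of -0.01, beside -0.02 for all tested genes. At an unadjusted p under 0.05 there were 4, or 9.76%, each lower. In either direction the share was 7.02% of all tested genes and 11.4% of those with a total of at least 1000. For lower genes alone it was 3.79% and 5.43%. These were Skil at -0.76, which encodes a co-repressor that holds SMAD activity down, the BMP type I receptor gene Bmpr1b at -0.63, the ubiquitin ligase gene Smurf2 at -0.65 and the BMP type II receptor gene Bmpr2 at -0.51 on the log2 scale in the authors' deposited table. Skil had the lowest adjusted p of the list by the authors' deposited table, 0.241. The totals of Skil and Smurf2, 600.9 and 248.2, were under 1000.

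Of the 6 tested SMAD genes 4 were lower, with a median of -0.39, where 5837 of all 10963 tested genes were lower. Smad5 stood at -0.38 and Smad1 at 0.18 in the authors' deposited table. Smad2 and Smad3, which carry the activin signal, were lower by the authors' deposited table, at -0.39 (-0.91 to 0.12) and -0.43 (-0.87 to 0.0043) on the log2 scale. Their common partner Smad4 stood at -0.41 and the inhibitory Smad7 at 0.17 in the authors' deposited table. None of the 6 SMAD genes had an unadjusted p under 0.05. For Bambi, a decoy receptor without a kinase, the authors' deposited table gave 0.43 on the log2 scale (-0.0036 to 0.87). Of the proteases that cut TGF-beta family precursors, the authors' deposited table put Furin at a log2 fold change of 0.01 (-0.67 to 0.69) and Pcsk6 at 0.65 (-0.41 to 1.70).

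**Figure D5:**
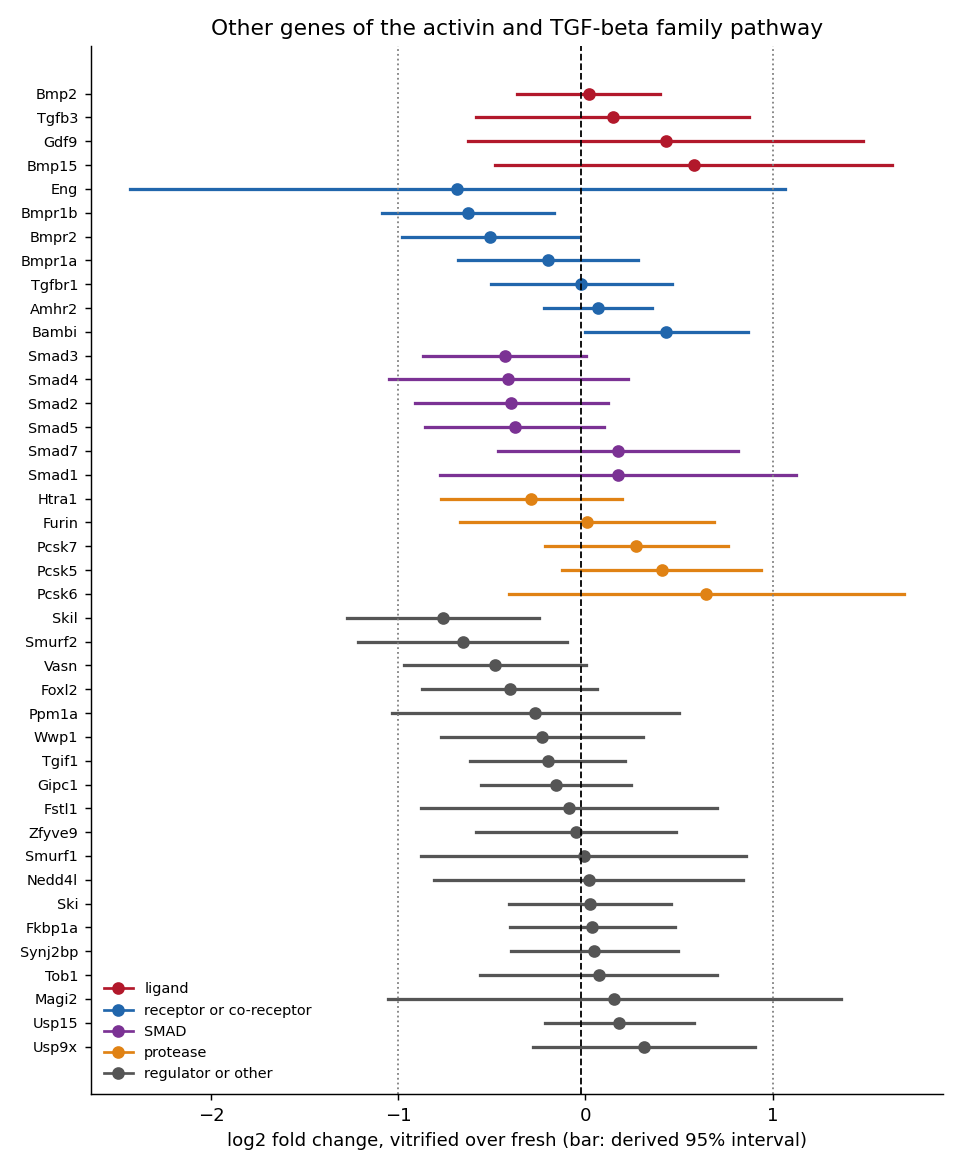
Log2 fold change, vitrified over fresh, of the 41 tested pathway genes as points, with derived 95% intervals as bars, grouped and coloured by role, with the median of all tested genes (dashed) and 2-fold (dotted). The bars of Bmpr1b, Bmpr2, Skil and Smurf2 lie wholly below 0.

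Markers of the follicle's cell types were examined beside these results. Of 11 granulosa markers 10 were tested, with 3 higher, 7 lower and a median log2 fold change of -0.11. They included Gja1 with a total of 548309 and the aromatase gene Cyp19a1 with 13732 in the authors' deposited table. At an unadjusted p under 0.05 there were 3 of the 10, 1 higher and 2 lower, or 30.0%, against 7.02% of all tested genes. By the authors' deposited table they were the FSH receptor gene Fshr at 0.67, the transcription factor gene Foxo1 at -0.68 and Grb14 at -0.59. Their unadjusted p-values in the authors' deposited table were 0.0128, 8.2e-04 and 0.0016. For Foxl2, a transcription factor of granulosa cells, the authors' deposited table gave -0.40 on the log2 scale (-0.87 to 0.06). Of 8 theca markers 7 were tested, 5 higher and 2 lower in vitrified follicles, with a median of 1.19. At an unadjusted p under 0.05 there were 4 of these 7, 3 higher and 1 lower, or 57.1%, against 7.02% of all tested genes. By the authors' deposited table the theca markers Insl3, Star and Aldh1a1 stood at 2.70, 1.60 and 1.19 on the log2 scale. Their unadjusted p-values were 0.0012, 8.2e-04 and 6.8e-04. The other higher ones were Cyp17a1 at 1.47 (-0.04 to 2.97) and Cyp11a1 at 0.47 (-1.08 to 2.03). The lower ones were Fbln1 at -0.50 (-0.86 to -0.13) and Ptch1 at -0.15 by the authors' deposited table. Of 12 oocyte markers 7 were tested, and these 7 were higher, with a median of 0.84. None of these 7 had an unadjusted p under 0.05. Nlrp5 and Dazl, which have no adjusted p, stood at 0.92 and -2.14 in the authors' deposited table. Dazl, with a total of 44.3, was the lower one, and its unadjusted p in the authors' deposited table was 0.0030. Of the 4 stroma markers 3 were higher, with a median of 0.10. The endothelial markers Cdh5 and Pecam1, the 2 tested of 3, stood at -1.66 and -1.25 in the authors' deposited table. No member of these lists passed the adjusted threshold (0 in each, against 0.529% of all tested genes), and lists this short would seldom hold a gene that did. Of 3 immune markers 0 were analysed, and of 3 surface epithelium markers 1 was analysed and 0 tested. Summed levels per group were not computed, since the totals are pooled over both groups, and the part of these cell types in the values of Fst, Inhbb and the receptors was not tested.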

How the data were processed

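The authors deposited 1 table that sets vitrified against fresh follicles; columns of values per follicle used here number 0. Bowtie2, HISAT2, Partek, DESeq2 and mm10 are listed without versions or roles, per the submitters' processing notes. The counting of reads, strand use and annotation were not given in the sources used here. Libraries followed a Smart-seq protocol, per the labels' protocols. Per the file headers, each gene has a total count, deposited as a signal pooled over libraries, a p-value, an adjusted p-value, a signed fold change score and a log2 fold change. Only 0.237% of the totals lie within 0.001 of a whole number, so no count test was run on them, and the depth of each library is not known. Adjusted p-values, given for 10963 genes, were matched by Benjamini-Hochberg values over these genes to within 0.598%.

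The members and lists were chosen with earlier results of these data known. The standard error was derived as the log2 fold change over the normal quantile of its p, and the 95% interval from it, which assumes a two-sided normal test. The change needed to pass is this error times 3.66, the quantile of the largest p called. The derivation was also run on data simulated under that same normal test, so this run could not check the assumption itself. Groups came from the sample titles. The authors' own test was used, as no count model could be fitted to a table without values per follicle. All members analysed were named, with the 4 pathway genes of lowest p and fixed partners. Of the fixed partners Fstl3 was not analysed here. Other pathway genes named, and those from marker lists, were chosen after their values were seen. Coordinates, lengths and shared 50-base windows, taken every 25 bases, came from GENCODE M21 (GRCm38, the assembly called mm10), and promoters from RefSeq. Alternatives covered the genes adjusted over, a t distribution, the threshold, a total of at least 120, centring and gene length. Python 3.11.15, numpy 2.4.6, pandas 2.3.3, scipy 1.17.1 and matplotlib 3.10.9 were used.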

Additional observations from a re-analysis of the deposited data

How the results depend on the processing

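The count of 0 genes past the threshold, among the 8 and among the 41 pathway genes, was also 0 with adjustment over every gene, a t distribution with 10 degrees of freedom, a threshold of 0.10 and a total of at least 120, which leaves out Acvr1 and Acvr1b; with an unadjusted p under 0.05 it was 2 among the 8 and 4 among the pathway genes. The median log2 fold change of the 8 genes, -0.10, became 0.012 when centred on the granulosa markers, and was -0.07 and -0.08 when centred on all tested genes and on those with a total of at least 1000. Inha became 0.0024 when centred on all tested genes and 0.088 on granulosa markers, the centring alone turning its sign. The other 7 genes kept their sign under each centring, though Inhbb centred on granulosa markers had an unadjusted p of 0.063. With a t distribution the unadjusted p was 0.0328 for Fst and 0.0445 for Inhbb. The level of Inha over Inhba was 7.03 with mean coding length, in place of 11.3, and that of Inhbb over Fst 1.33 with the longest transcript and 0.764 with mean coding length, in place of 2.10. No paired analysis was possible because no values per follicle were used, and for the same reason leaving out each follicle was not run. The totals of Acvr1 and Acvr1b, 89.4 and 68.4, went with errors of 0.43 and 0.55.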

Other observations

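The pathway ligands and the proteases lay mostly on the higher side in vitrified follicles without passing the threshold. Of the tested ones 0 had an unadjusted p under 0.05, and 5126 of all 10963 tested genes were higher. The ligand gene Bmp2 and the protease gene Furin, at 0.02 and 0.01, count as higher though near 0. All 4 tested ligand genes were higher, with a median log2 fold change of 0.29, among them the oocyte ligand genes Gdf9 and Bmp15, which the authors' deposited table put at 0.43 (-0.63 to 1.48) and 0.58 (-0.48 to 1.64). Gdf9 and Bmp15 are also counted among the 7 tested oocyte markers. These were all higher with a median of 0.84, none with an unadjusted p under 0.05. The part of the oocyte in the ligand values was not tested. Of the ligand genes without an adjusted p, Tgfb2 was at 0.75 and Gdf11 at -0.37 by the authors' deposited table. For Bmp2 the authors' deposited table gave a total of 4951 and a log2 fold change of 0.02 (-0.36 to 0.40). Of the 5 proteases 4 were higher, and Htra1, with the highest total of them by the authors' deposited table, 14425, was lower at -0.29 (-0.77 to 0.19). By the authors' deposited table the anti-Mullerian hormone receptor gene Amhr2 was at 0.07 (-0.22 to 0.35) and the TGF-beta type I receptor gene Tgfbr1 at -0.02 (-0.50 to 0.46).

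Intervals wholly within 2-fold were found for 30 of the 41 tested pathway genes, where 69.1% of all tested genes had such an interval.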
